A study of Mus musculus with 6 samples.

Results

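The genes described here are 8 genes of leptin receptor signalling, Lepr, Jak2, Stat3, Socs3, Ptpn1, Ptpn2, Sh2b1 and Ptpn11. Every probe that the array's annotation gives one of these symbols was taken, whatever its value, which gave 20 of the 56605 probes on the array and 8 of its 37074 gene names. Lepr had 6 probes, Ptpn1 and Stat3 had 3 each, Jak2, Ptpn2 and Ptpn11 had 2 each, and Socs3 and Sh2b1 had 1 each.

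Leptin is a hormone of fat tissue that reports energy stores to the brain, and the hypothalamus is the site where it lowers food intake. It binds its receptor Lepr, the kinase Jak2 that is attached to the receptor phosphorylates it, and the transcription factor Stat3 docks there, is phosphorylated and moves to the nucleus. Stat3 raises the transcription of Socs3, which in turn blocks the receptor and Jak2, while the phosphatases Ptpn1 and Ptpn2 take phosphate off Jak2 and Stat3, the adaptor Sh2b1 strengthens Jak2, and Ptpn11 (also called Shp2) links the receptor to Erk. In diet-induced obesity leptin is high and the hypothalamus responds to it weakly, a state called leptin resistance.

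RNA of the hypothalamus was measured on 6 one-colour Agilent arrays, 1 array a mouse. All mice were male C57BL/6J mice with diet-induced obesity (DIO), put at 6 weeks of age on a high-fat diet with 60% of its energy from fat for 16 weeks. The GSK-J4 group of 3 mice received 30 mg/kg of GSK-J4, a small molecule that inhibits the Kdm6 demethylases of the histone mark H3k27me3, and the vehicle group of 3 mice received the injection without it. The series' design text places the tissue at 4 d after exposure, whereas the methods describe daily injections for 21 d and collection at zeitgeber time 6 h, and the labels do not settle which holds for these mice. Levels are given as log2 signal on the authors' quantile-normalized scale, and a difference is always GSK-J4 minus vehicle on that scale.

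Signal was well above background for 57.7 to 58.7% of probes on the GSK-J4 arrays and 62.8 to 63.6% on the vehicle arrays, and the 75th percentile of the signal before normalization was 406 to 461 against 787 to 916. The 3 vehicle arrays were on 1 slide and the 3 GSK-J4 arrays on another, so slide, scan and treatment cannot be told apart. Of 12 markers of hypothalamic neurons, 6 passed the filter on dim probes (Npy, Pomc, Agrp, Hcrt, Oxt and Nr5a1), while Avp, Pmch, Nkx2-1, Otp, Sim1 and Hmx3 did not, and all 5 markers of cortex and hippocampus passed it. Vehicle replicate 1 stood apart in transcripts of the choroid plexus, with a summed signal of 118459 over 9 markers, against 3333 to 12944 on the other 5 arrays. Values that rest on this array are given with and without it.

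The probes that the results turn on are shown here, 5′ to 3′ and in lower case, because the probes of 1 gene did not read alike. Each is given with its place on the genome, and its place on a transcript was not computed. Coordinates are those of the array files, on mm9. The first 2 were shown whole, the others as their central 30 bases (positions 16 to 45 of 60). The frame given is the first reading frame free of stop codons in the 60 bases. A_55_P2177910 had 1 such frame and A_55_P2177911 had 2, and which frame is the coding one was not computed.
Lepr A_55_P2177910 (chr4:101452666-101452725, + strand, record NM_010704, open in frame 1): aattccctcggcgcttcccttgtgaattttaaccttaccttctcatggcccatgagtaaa
Lepr A_55_P2177911 (chr4:101464615-101464674, + strand, record NM_010704, open in frame 1): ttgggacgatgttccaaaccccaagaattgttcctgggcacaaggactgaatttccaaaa
Lepr A_55_P2506350 (chr4:101486122-101486181, + strand, record NM_001122899): tttgatgtgtttacattgtttgtactgagc
Lepr A_66_P130517 (chr4:101487858-101487917, + strand, record NM_146146): aatctcatccaagaagcctcaaggttccat
Socs3 A_51_P474459 (chr11:117827480-117827539, - strand, record NM_007707): gaagatgcttgaaaaactcaaccaaatccc
Stat3 A_51_P201480 (chr11:100749598-100749657, - strand, record NM_213659): taccccaggctgggaactcctggctctgca

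Expression of Lepr, read by the probe A_55_P2177910, was higher in the hypothalamus of GSK-J4 mice. Its log2 signal was 7.93, 8.10 and 8.08 in vehicle replicates 1 to 3 and 8.70, 8.66 and 8.73 in GSK-J4 replicates 1 to 3. Every GSK-J4 array lay above every vehicle array, and the spread within each group was small next to the gap between them. The means were 8.03 ± 0.093 and 8.69 ± 0.034 (SD, n = 3 in each group), a difference of 0.66 (SE 0.078, 95% interval 0.47 to 0.85) or 1.58-fold, with an adjusted p of 0.0146 in limma. The exact permutation p was 0.1, the smallest that 3 arrays against 3 allow. Because this is whole tissue, more cells that express a gene and more RNA per cell cannot be told apart. The difference lay between 0.55 and 0.66 under every other processing or test and between 0.61 and 0.69 with any 1 array left out. The adjusted p rose to 0.0587, 0.0659 and 0.0683 without vehicle replicates 1, 2 and 3, respectively, and to 0.0825 in the methods' t-test with unequal variances.

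This was the only member probe that passed an adjusted p of 0.05, 1 of the 14 that passed the filter on dim probes, and none was called lower. Across all 34443 probes that passed the filter, 16.8% were called in either direction and 8.39% were called higher, so that the members' share of 7.14% was not above the background. At an unadjusted p of 0.05, 5 member probes were higher and 1 was lower. These were 6 of the 14, beside 12577 of all 34443 tested probes in either direction, so the count alone does not set the members apart. The methods' rule asks for a 1.5-fold difference together with an unadjusted p under 0.05. By this rule Lepr A_55_P2177910 and Socs3 were higher, 2 of 14 against 4.79% of all tested probes. The groups did not overlap for 5 of the 14 member probes, whereas they did not overlap for 45.6% of all tested probes. The median difference over the 14 probes was 0.18, beside 0.02 over all tested probes.

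**Figure D1:**
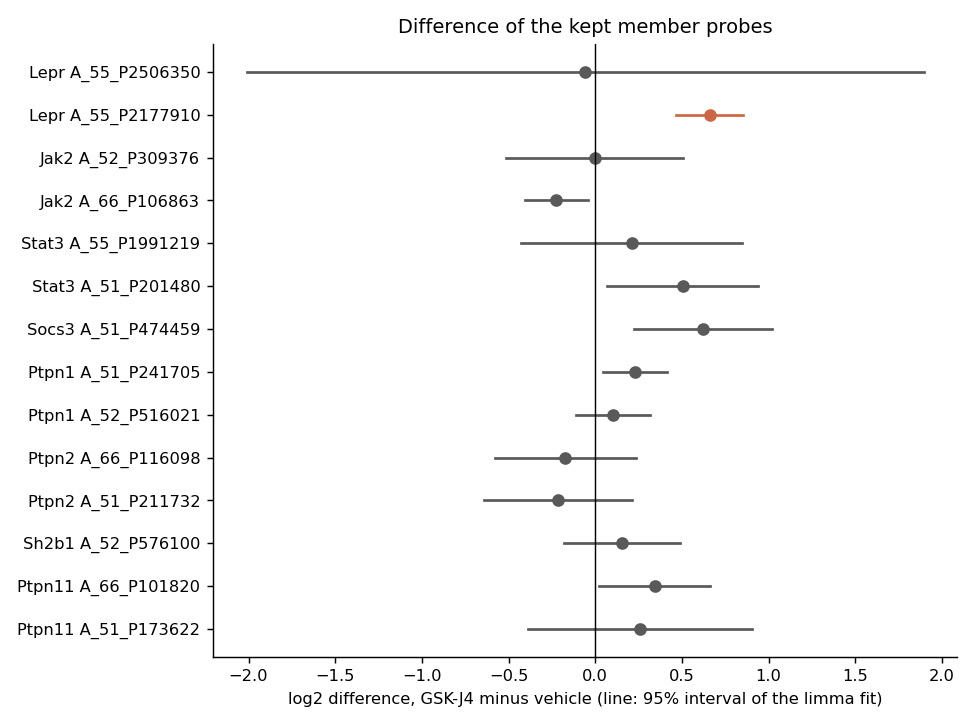
Difference between GSK-J4 and vehicle in log2 signal (x axis) for each of the 14 member probes that passed the filter, with the 95% interval of the limma fit as a line. The probe called at an adjusted p of 0.05 is in orange, Lepr A_55_P2177910 at 0.66, and the interval of the other Lepr probe runs from -2.01 to 1.89.

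The other 5 Lepr probes gave no such picture. A_55_P2506350, designed to transcript variant 3 and lying downstream of the first probe, read 7.64, 4.68 and 5.37 in vehicle replicates 1 to 3 and 5.23, 6.38 and 5.90 in GSK-J4 replicates 1 to 3. Its highest value was that of vehicle replicate 1, the array with the choroid plexus transcripts, and the groups overlapped. The difference was -0.06 (SE 0.79, adjusted p = 0.965), and without vehicle replicate 1 it was 0.81 (adjusted p = 0.244). The part of choroid plexus tissue in this value was not tested. Without the same array the difference of A_55_P2177910 was 0.61 (adjusted p = 0.0587). Within arrays, the gap between the 2 probes differed by -0.72 between GSK-J4 and vehicle (exact permutation test, two-sided p = 0.6), and by 0.21 without vehicle replicate 1.

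A_55_P2177911 has the same transcript record as the called probe and lies 3′ of it on the gene. It was well above background on 1 of the 6 arrays, with 4.08, 2.82 and 3.20 in vehicle and 2.34, 3.68 and 3.42 in GSK-J4. A_66_P130517 is the probe of transcript variant 1, the record of the long receptor form that carries the Stat3 docking site. It read 1.90, 1.91 and 2.72 in vehicle and 2.53, 5.46 and 1.87 in GSK-J4, and only the value of 5.46 was well above background. No difference was tested on this probe, and the files do not say which receptor forms the called probe also matches. The last 2, A_55_P2621144 and A_55_P2621147, designed to Ensembl transcripts, stayed at background on all 6 arrays, with log2 signals between 2.01 and 3.34.

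**Figure D2:**
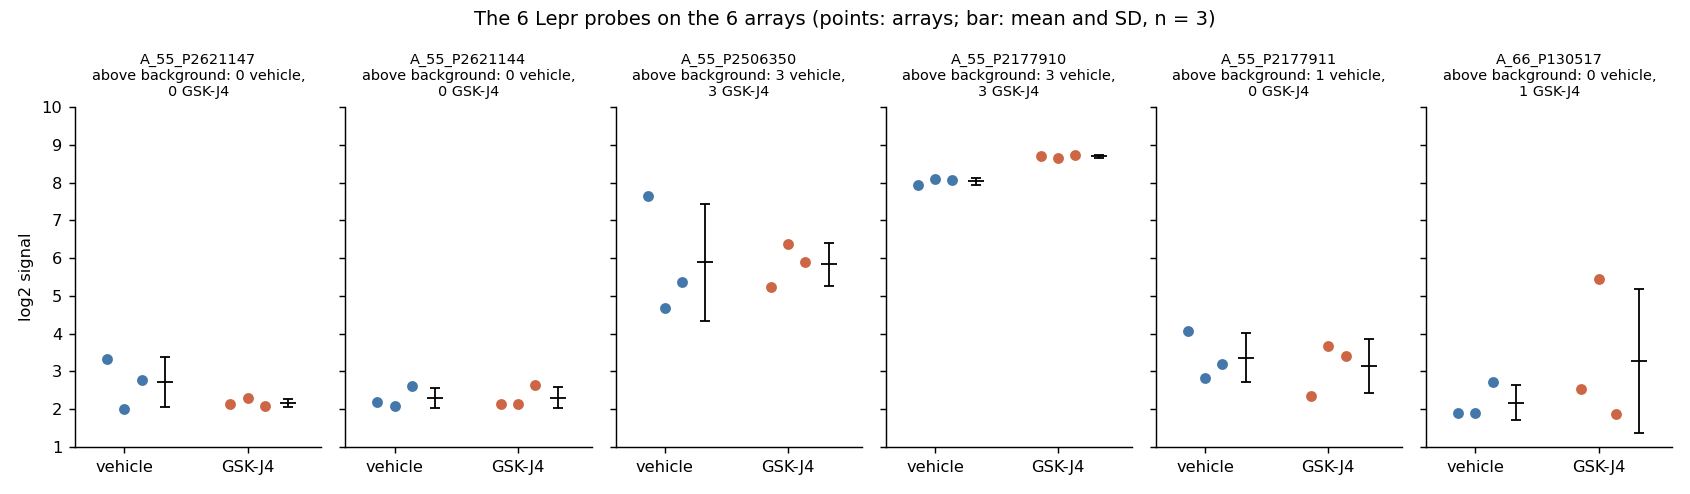
Log2 signal (y axis) of the 6 Lepr probes on the 3 vehicle and 3 GSK-J4 arrays, points from left to right being replicates 1 to 3 and bars the mean and SD (n = 3). A_55_P2177910 sits at 7.93 to 8.10 in vehicle and 8.66 to 8.73 in GSK-J4, A_55_P2506350 is scattered, and the titles of the other 4 give at most 1 array above background.

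The gene names whose probes followed Lepr A_55_P2177910 most closely over the 6 arrays, among 30940 probes well above background on all of them, were Olfr722, Rpl12, Tymp, Ctsf and Impg1, with Pearson's r between 0.998 and 0.999. Their differences ran from 0.20 (Rpl12) to 1.07 (Olfr722). With 6 arrays in 2 groups a high r is common, and 1563 probes (5.05%) had an r above 0.95. How many reached 0.998 was not counted. The r is a description over arrays that share slide and treatment.

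Jak2, the kinase on the receptor, differed little on both of its probes, and neither passed the test. A_66_P106863 (chr19:29386381-29386440) read 9.80, 9.86 and 9.76 in vehicle and 9.59, 9.51 and 9.64 in GSK-J4. The groups did not overlap, and the difference was -0.22 (SE 0.074, 95% interval -0.41 to -0.04, adjusted p = 0.0874). A_52_P309376 (chr19:29363211-29363270), a dimmer probe, read 5.55, 5.50 and 6.05 in vehicle and 5.96, 5.41 and 5.72 in GSK-J4. Its groups overlapped, with a difference of -0.003 and an interval from -0.51 to 0.51. The within-array gap between the Jak2 probes differed by 0.22 (exact permutation test, two-sided p = 0.4).

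Sh2b1, the adaptor that strengthens Jak2, read 12.35, 12.84 and 12.70 in vehicle and 12.76, 12.81 and 12.78 in GSK-J4 with its only probe, A_52_P576100 (chr7:133610713-133610772). The low vehicle value was again replicate 1, and the groups overlapped. The difference of 0.15 (SE 0.14, 95% interval -0.18 to 0.49, adjusted p = 0.445) became 0.01 without that array.

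Stat3, the transcription factor of the pathway, was brighter on the GSK-J4 arrays on the probe to its transcript variant 1, without passing the test. A_51_P201480 read 11.74, 11.51 and 11.71 in vehicle and 11.89, 12.05 and 12.51 in GSK-J4. The groups did not overlap, and GSK-J4 replicate 3 was the highest of the 6. The difference was 0.50 (SE 0.18, 95% interval 0.07 to 0.94, adjusted p = 0.0997), and it was 0.32 without GSK-J4 replicate 3, 0.65 with scaling to the 75th percentile (adjusted p = 0.0447), 0.61 with normexp background correction (adjusted p = 0.0137) and 0.25 once each array's trend with probe GC content was removed (adjusted p = 0.36).

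The second Stat3 probe, A_55_P1991219 (chr11:100759946-100760005), designed to transcript variant 3, read 5.56, 5.70 and 5.70 in vehicle and 5.37, 5.81 and 6.41 in GSK-J4. GSK-J4 replicate 3 was the highest here too, and the other 2 GSK-J4 values lay on either side of the vehicle values. The difference was 0.21 (SE 0.26, adjusted p = 0.589), and -0.06 without GSK-J4 replicate 3. The third probe, A_52_P569499, was well above background on 1 vehicle array only, with log2 signals between 2.75 and 4.01. The gap between the first 2 probes within arrays differed by -0.29 (exact permutation test, two-sided p = 0.2).

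Socs3, the feedback inhibitor that Stat3 induces, came close to the threshold. Its probe read 7.35, 6.97 and 7.24 in vehicle and 7.97, 7.52 and 7.93 in GSK-J4. Every GSK-J4 value lay above every vehicle value, with the lowest value of each group in replicate 2. The means were 7.19 ± 0.19 and 7.81 ± 0.25 (SD, n = 3 each), a difference of 0.62 (SE 0.16, 95% interval 0.22 to 1.02) or 1.54-fold, with an adjusted p of 0.052. The difference stayed between 0.47 and 0.76 under every alternative and with any array left out. The adjusted p fell below 0.05 under 4 of the 19 alternatives, among them the limma fit with a mean-variance trend (0.0428) and the fit without GSK-J4 replicate 2 (0.0362).

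**Figure D3:**
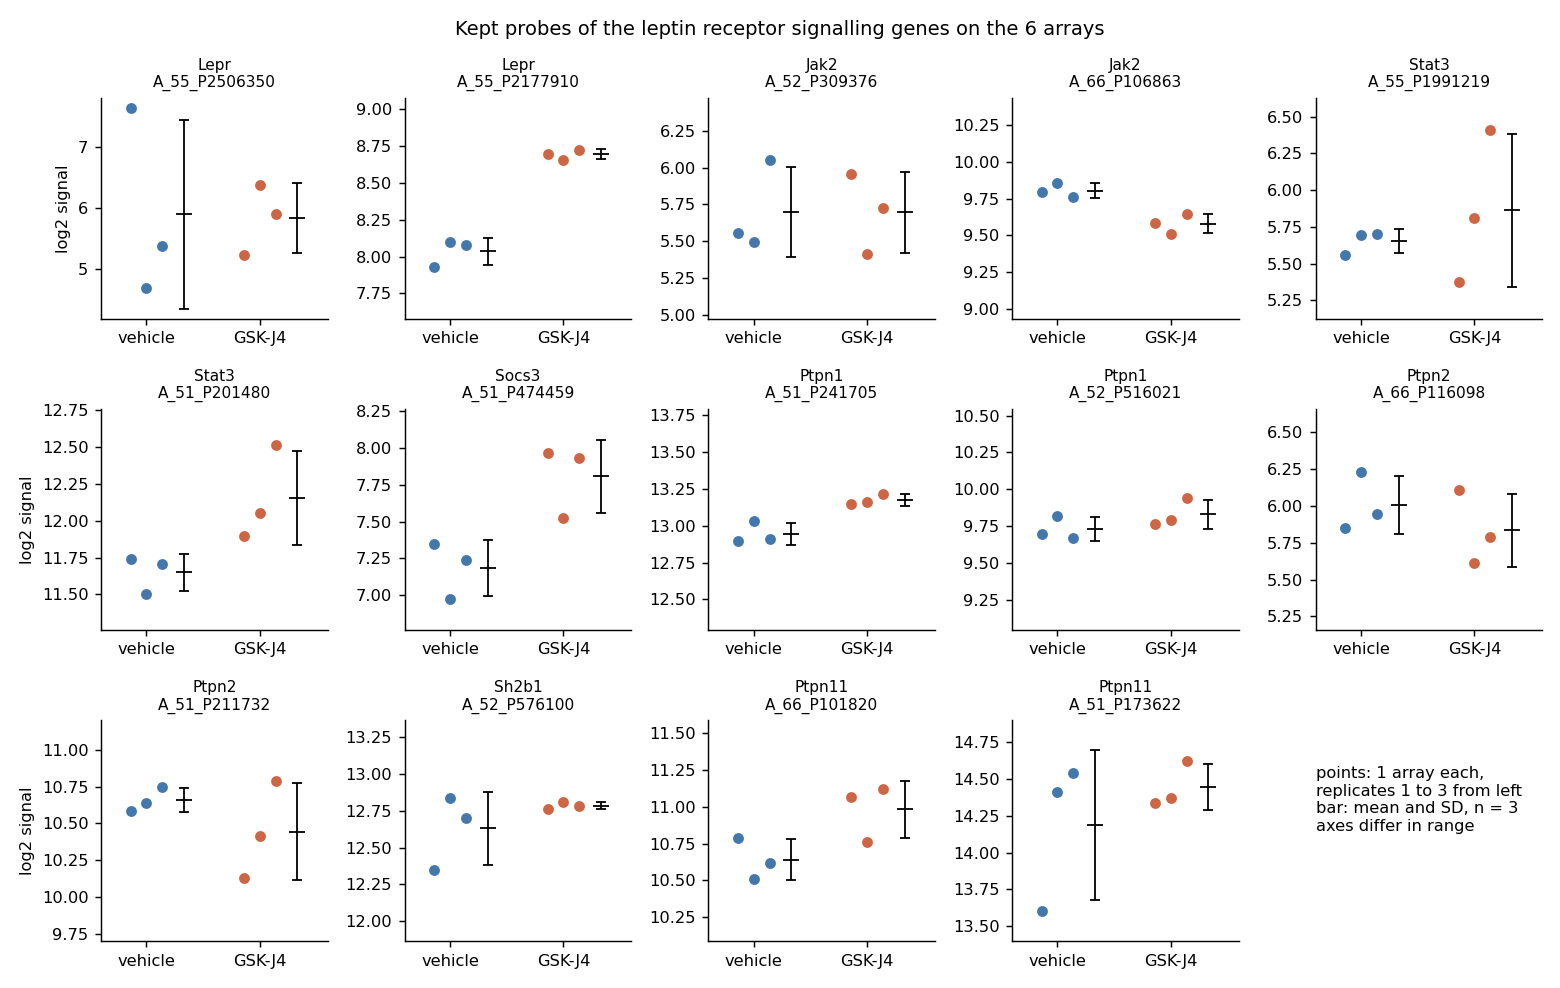
Log2 signal (y axis, a different range in each panel) of the 14 member probes that passed the filter, with 1 point an array and bars for the mean and SD (n = 3). The vehicle and GSK-J4 points are apart for Lepr A_55_P2177910, Jak2 A_66_P106863, Stat3 A_51_P201480, Socs3 and Ptpn1 A_51_P241705, and overlap in the other 9 panels.

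The 6 measured probes of the phosphatases Ptpn1, Ptpn2 and Ptpn11 showed smaller differences, none of which passed the test. Ptpn1 (PTP1B), which dephosphorylates Jak2, read 12.89, 13.03 and 12.91 in vehicle and 13.15, 13.16 and 13.22 in GSK-J4 on A_51_P241705 (chr2:167802296-167802355). These values did not overlap, and they differed by 0.23 (SE 0.075, 95% interval 0.05 to 0.41, adjusted p = 0.0846). With scaling to the 75th percentile the difference was 0.46 (adjusted p = 0.0192). A_52_P516021 (chr2:167804295-167804354) differed by 0.10 (SE 0.087, adjusted p = 0.433) with overlapping groups, and the third probe, A_55_P2714551, stayed at background on all 6 arrays. The gap between the first 2 differed by -0.13 within arrays, the groups did not overlap, and the exact permutation p was the smallest possible, 0.1.

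Ptpn2 (TC-PTP), which dephosphorylates Stat3, was, beside Jak2, the only gene whose measured probes were lower on average in GSK-J4. A_51_P211732 read 10.58, 10.64 and 10.75 in vehicle and 10.13, 10.41 and 10.79 in GSK-J4. GSK-J4 replicate 3 was the highest of all 6 and the other 2 the lowest, so the groups overlapped, with a difference of -0.21 (SE 0.17, 95% interval -0.64 to 0.21, adjusted p = 0.412). A_66_P116098 differed by -0.17 (SE 0.16, adjusted p = 0.484), again with overlap, and the within-array gap between its probes differed by 0.04 (exact permutation test, two-sided p = 0.9).

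Ptpn11, the phosphatase that carries the signal to Erk, read 10.79, 10.51 and 10.62 in vehicle and 11.07, 10.76 and 11.12 in GSK-J4 on A_66_P101820, whose 60 bases span 467 bases of the genome (chr5:121593145-121593611) and so cross a splice junction. Its groups overlapped in 1 value, and the difference of 0.34 (SE 0.13, 95% interval 0.02 to 0.66) had an adjusted p of 0.117, or 0.037 with normexp background correction. On A_51_P173622 (chr5:121580585-121580644) vehicle replicate 1 stood low, with 13.61 beside 14.41 and 14.54 in vehicle and 14.34, 14.37 and 14.63 in GSK-J4. The difference of 0.26 (SE 0.26, adjusted p = 0.507) was -0.03 without that array, and the gap between the probes differed by 0.085 (exact permutation test, two-sided p = 1).

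**Figure D4:**
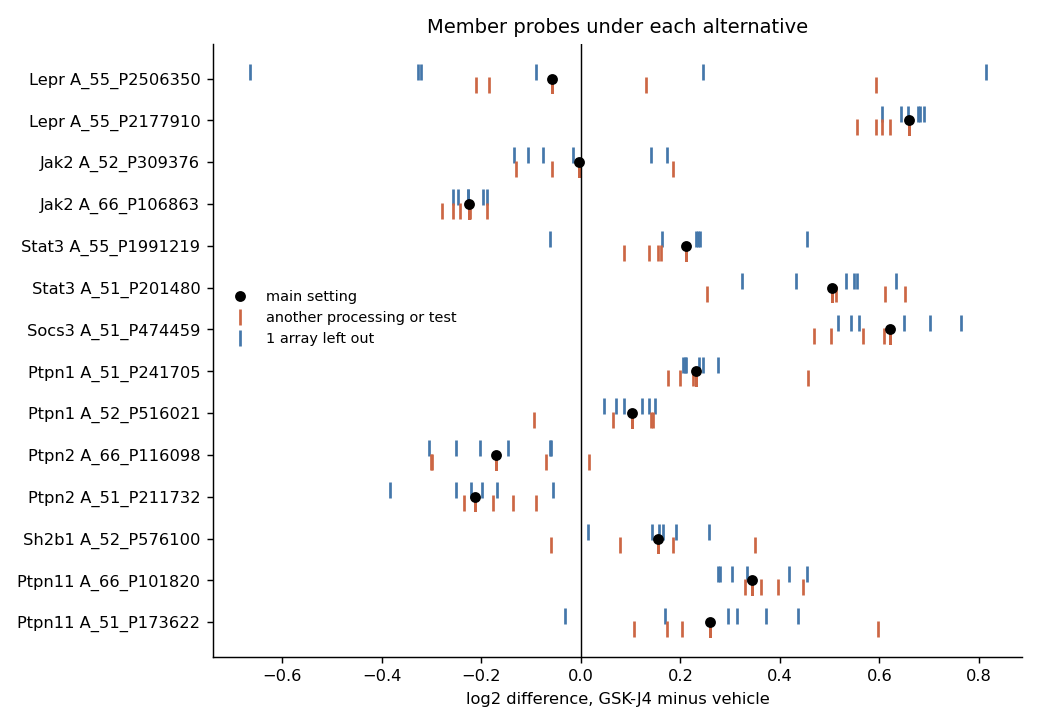
Difference between GSK-J4 and vehicle in log2 signal (x axis) of the 14 member probes in the main setting (black), with other processing or tests (orange ticks) and with 1 array left out (blue ticks). Lepr A_55_P2177910 stays between 0.55 and 0.69 and Socs3 between 0.47 and 0.76, while 7 probes have a tick on the other side of 0.

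Marker levels of the cell types in the tissue are given beside these values. The summed signal of the 6 measured hypothalamic neuron markers was 3288 to 3443 in vehicle and 4358 to 4967 in GSK-J4, but Npy alone made up 84.6 to 87.9% of it on each array. Of the other 5, Pomc rose, while Hcrt (0.81, adjusted p = 0.0586), Agrp (0.10), Oxt (0.09) and Nr5a1 (-0.30) did not pass the test. Tanycyte markers, 7 of 8 measured, summed to 62065 to 67070 in vehicle and 58364 to 63000 in GSK-J4, and endothelial markers, 7 of 7, to 18861 to 19989 and 16637 to 22038. Crym alone made up 46.6 to 59.8% of the tanycyte sum, and Slc2a1 37.0 to 49.8% of the endothelial sum. Of the 7 tanycyte genes, 4 were higher and 3 lower. Astrocyte markers, 6 of 6, summed to 35594 to 37673 in vehicle and 37912 to 40471 in GSK-J4. Of these 6 genes, 3 were higher and 3 lower, none was called, and their median difference was 0.04. The neuron and astrocyte sums were higher in GSK-J4 without overlap, as were Lepr A_55_P2177910 and Socs3, and their part in them was not tested. The sums of the other 7 lists overlapped between the groups. Of the other markers, the microglial gene C1qa rose by 0.41 (adjusted p = 0.0305) and the cortical gene Emx1 by 0.53 (adjusted p = 0.0373), and the cortical gene Neurod6 fell by 0.47 (adjusted p = 0.0335). C1qa was the only one called of 6 microglial genes, of which 4 were higher and 2 lower, from -0.35 to 0.58. Of the 5 genes of cortex and hippocampus, 2 were higher and 3 lower. The tanycyte gene Rax was called too, at 1.09 (adjusted p = 0.0323), but was well above background on only 2 of the 3 vehicle arrays, so its vehicle level lay close to background.

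Probe GC content also moved with the direction of change over the whole array. Among tested probes with 46.7% GC or more, 19.97% were called higher and 1.67% lower, while of those with 38.3% or less, 2.35% were called higher and 14.1% lower. Of the probes between, with 40 to 45% GC, 7.63% were called higher and 7.11% lower. The 14 member probes had 35 to 55% GC with a median of 45%, and the called Lepr probe had 45%. With each array's GC trend removed the Lepr difference was 0.60 (adjusted p = 0.0224), that of Socs3 was 0.57, and that of Stat3 A_51_P201480, the member probe with the highest GC content, was 0.25.

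Of 74 other genes of the pathway in 7 lists, 71 were measured, each by its brightest probe. Of these, 9 rose (12.7%, where 8.60% of all 22117 genes did) and 4 fell (5.63%, where 7.56% of all genes did). The median difference was 0.05, beside 0.04 over all genes. Probes above 45% GC read 8 of the 9 genes that rose, none of the 4 that fell and 17 of the 71 in all. With the GC trend removed, 4 of the 13 kept their call (Pomc at 0.60, Socs1 at 0.40, Map2k1 at -0.50 and Sos1 at -0.33). The other 9 had smaller differences than in the main setting, namely 0.37 for Ptpn6, 0.21 for Npy, 0.14 for Mapk3, 0.10 for Pias4, 0.08 for Lep, 0.07 for Hras, 0.05 for Irs2, -0.24 for Bbs1 and -0.39 for Lifr. Without any 1 of the 3 vehicle arrays none of the 71 was called by limma, with 18 to 25 at an unadjusted p of 0.05. In the same fits 9585 to 10443 of all 34443 tested probes were at an unadjusted p of 0.05. The methods' t-test with unequal variances called 1.

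Over all 22117 genes, 8.60% rose and 7.56% fell. Among 7 genes of leptin and receptor handling, Lep, the hormone itself, rose by 0.31 (adjusted p = 0.0484), and Bbs1, a ciliary trafficking protein that binds Lepr, fell by 0.36 (adjusted p = 0.0353). Bbs1 had 2 more measured probes, which differed by -0.68 and 0.43, and 1 of these was called. Leprot, which is transcribed from the same locus as Lepr, differed by -0.11 (adjusted p = 0.496). Of 8 other Jak and Stat genes none was called by limma, and 1 was lower at an unadjusted p of 0.05, Tyk2 at -0.57 (adjusted p = 0.0536). Of 7 receptors that share Jak2 or Stat3, Lifr, the receptor of leukaemia inhibitory factor, fell by 0.57 (adjusted p = 0.0358), while its other 2 probes were both higher by 0.47 and not called.

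Of 14 other inhibitors, 3 rose and none fell, where 8.60% of all genes rose and 7.56% fell. Socs1, a relative of Socs3 that inhibits Jak kinases, rose by 0.31 (adjusted p = 0.0359). Pias4, an inhibitor of Stat factors, rose by 0.35 (adjusted p = 0.0375). Ptpn6 (Shp1), a phosphatase of cytokine receptors, rose by 0.59 (adjusted p = 0.0345) on its brightest probe. Its other 2 probes differed by -0.13 and 0.48, and 1 of these was called. With the GC trend removed, Socs1 kept its call and Pias4 and Ptpn6 lost theirs. In all, 11 of the 14 inhibitors were above 0, beside 41 of the 71 genes of all lists. The list median was 0.10, beside 0.04 over all genes.

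In the Irs and PI3K arm 1 of 13 measured genes rose, Irs2, an adaptor of insulin and leptin receptors, by 0.29 (adjusted p = 0.0343), and none fell. In the Shp2 and Erk arm 2 of 11 rose and 2 fell. Over all genes 8.60% rose and 7.56% fell, and counts this small do not set either arm apart. The kinase Mapk3 (Erk1) rose by 0.39 (adjusted p = 0.0244) and the GTPase Hras by 0.27 (adjusted p = 0.0425). Upstream and between them, the exchange factor Sos1 fell by 0.52 (adjusted p = 0.015) and the Erk kinase Map2k1 fell by 0.44 (adjusted p = 0.0363). The further probes of Sos1, Map2k1 and Hras differed in the same direction as the brightest one. The few calls of the Shp2 and Erk arm lay in both directions, and its median was -0.21, beside 0.04 over all genes.

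Of 11 measured leptin responsive genes, 2 rose and none fell, where 8.60% of all genes rose and 7.56% fell. Pomc, the precursor of the satiety peptide alpha-MSH that leptin induces, rose by 0.85 (adjusted p = 0.022), and Npy, an appetite-stimulating peptide that leptin represses, rose by 0.42 (adjusted p = 0.0267). Timp1 (0.66, adjusted p = 0.0565) and Cartpt (0.52, adjusted p = 0.0847) did not overlap between the groups and did not pass the test, and the 6 genes with a difference below 0 lay between -0.29 and -0.12. The list median was -0.12. At an unadjusted p of 0.05, 4 of the 11 were higher and none was lower. In the fit with 1 probe a gene, 8097 of 22117 genes were at that threshold in either direction. These were not split by direction, so the base for a count in 1 direction is not given.

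**Figure D5:**
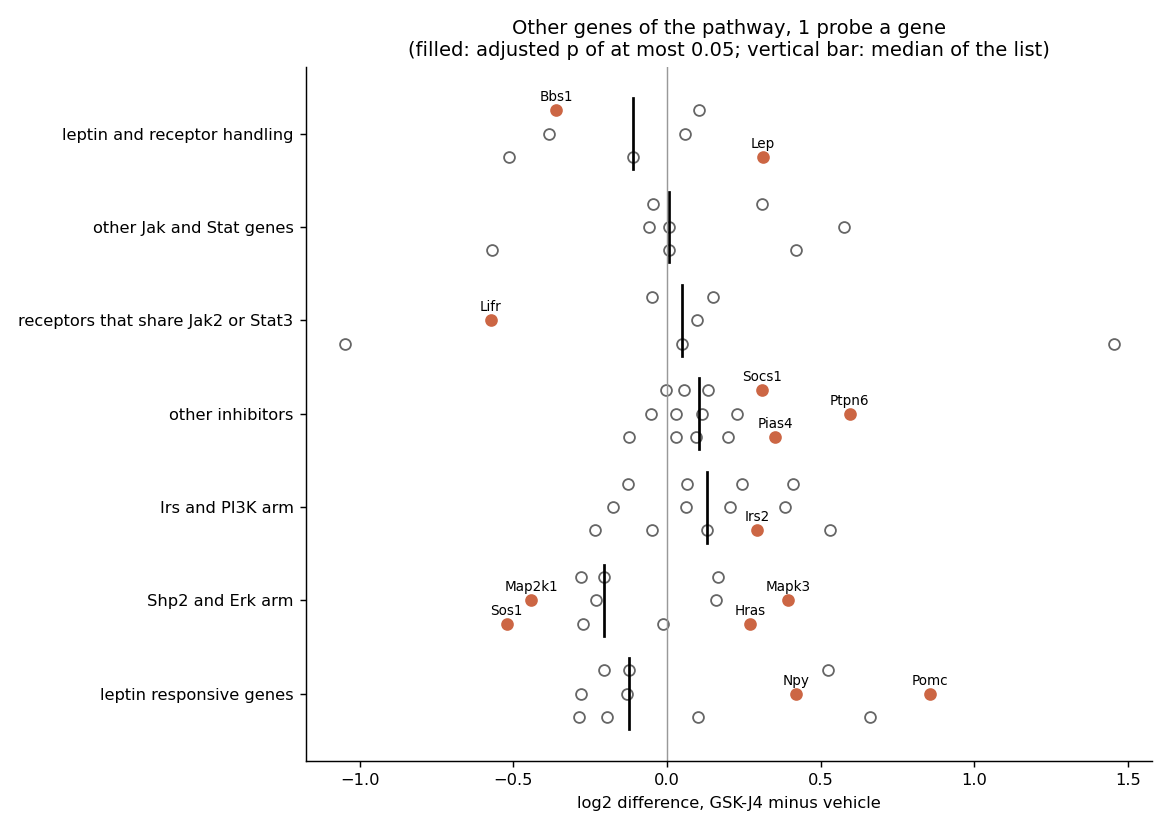
Difference between GSK-J4 and vehicle in log2 signal (x axis) of 71 other genes of the pathway, 1 circle a gene in 7 lists (y axis), with the list median as a vertical bar. Filled circles are the 13 genes called at an adjusted p of 0.05, from Sos1, Lifr and Map2k1 on the left to Pomc at 0.85 on the right, and list medians lie between -0.21 and 0.13.

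The promoters of the members were searched for the core motif of Stat binding, TTCNNNGAA, which reads alike on both strands and was searched in 250 bases before and 50 after each RefSeq start (GRCm38.p6). RefSeq windows were at hand for 7 of the 8 genes, 9 windows in all, and Ptpn2 was not matched. The motif was found in 1 of them, that of Socs3, and in 8.3% of all 32851 windows. The match is shown because Socs3 is the known Stat3 target among the members, with the motif in capitals, from 154 to 146 bases before the start (chr11:117969487-117969545, - strand). It describes the letters of this window and says nothing on binding in these mice.
Socs3 promoter: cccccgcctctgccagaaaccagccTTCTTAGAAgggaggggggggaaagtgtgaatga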

How the data were processed

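The authors hybridized hypothalamic RNA of 6 mice, 3 a group, to 1-colour Agilent arrays and deposited, per the file headers, background-corrected spot intensity values and flags from Feature Extraction 10.7.1.1, with probe coordinates on mm9. They also deposited log2 values, quantile normalized in GeneSpring 14.8 per the methods, whose sorted columns differ by at most 0.00424. Those log2 values were tested.

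A probe was tested if well above background on all 3 arrays of a group. Differences were fitted over all tested probes with limma 3.58.1 (R 4.3.3; lmFit and eBayes), adjusted by the method of Benjamini and Hochberg over all 34443 probes and called at an adjusted p of 0.05. Single probes and gaps between probes were also tested with exact permutation tests, and the fit was checked on simulated data. The series' design text says that each replicate is a different mouse. Same-numbered deviations correlated at 0.007, 0.026 and 0.081, and differently numbered ones at -0.098 to 0.093. No pairing by replicate number was seen, though 3 arrays a group cannot exclude it. All 8 members were named, as were list genes called, the 5 gene names most like Lepr and, after their values were seen, a few others (Leprot, Tyk2, Timp1, Cartpt, the hypothalamic neuron markers, Rax, C1qa, Emx1 and Neurod6). The authors' methods t-test, other scalings, filters and left-out arrays were alternatives. The number of arrays limits the precision. The members and lists were chosen with earlier results of these data known.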

Additional observations from a re-analysis of the deposited data

How the results depend on the processing

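Of 260 values of member probes under alternatives, 234 kept direction and side of the threshold, 9 gained and 5 lost a call in the same direction, and 12 turned sign. The count of all probes called, 5788, was 3765 with no filter on dim probes, 3649 with the GC trend removed, 3711 with 1 probe a gene, and 93 and 3315 in the methods' t-test with unequal and equal variances. Leaving out 1 array gave 5 to 4165. Other settings gave more, 8643 with scaling to the 75th percentile, 6780 with a trend and robust fit and 6653 with array weights. Normexp background correction gave 6254, and probes well above background on all 6 arrays gave 6164. At an unadjusted p of 0.05, the t-test with unequal variances had 9301 of all 34443 probes. The fits without a vehicle array had 9585 to 10443. The count of member probes called, 1, was 3 with scaling to the 75th percentile, 4 with normexp background correction, 2 for probes well above background on all 6 arrays, 3 with a trend and robust fit, 2 by the rule of the methods, 0 in the t-test with unequal variances (4 at an unadjusted p of 0.05) and 0 to 2 with 1 array left out (0 without any of the 3 vehicle arrays, 3 at an unadjusted p of 0.05). The count of pathway list genes called, 13, was 8 with no filter, 5 with Agilent's flag for positive and significant signal, 5 with the GC trend removed, 1 and 8 in the t-tests with unequal and equal variances, 4 by the rule of the methods and 0 to 5 with 1 array left out. It was 15 with scaling to the 75th percentile and 15 with array weights. A trend and robust fit gave 16, and probes well above background on all 6 arrays gave 17.

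With the replicate number as a block, 0 of all probes (11070 at an unadjusted p of 0.05), 0 member probes (4) and 0 list genes (23) were called by limma, and the Lepr A_55_P2177910 difference of 0.66 had an adjusted p of 0.0802. Since the numbers are not known to pair the arrays, this loss is not read as a weaker effect.

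Signs turned with the GC trend removed for Lepr A_55_P2506350 (0.13), Jak2 A_52_P309376 (0.18), Ptpn1 A_52_P516021 (-0.094), Ptpn2 A_66_P116098 (0.017) and Sh2b1 (-0.060), and with array weights for Lepr A_55_P2506350 (0.59). With 1 array left out, Lepr A_55_P2506350 ranged from -0.67 to 0.81, Jak2 A_52_P309376 from -0.13 to 0.17, Stat3 A_55_P1991219 from -0.063 to 0.45 and Ptpn11 A_51_P173622 from -0.031 to 0.44. None of these probes was called in any setting. The slide could not be used as a block because each slide holds 1 group. Why other counts moved was not tested.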
